A study of Mus musculus with 6 samples.

Results

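The high mobility group (HMG) proteins described here are the products of 9 mouse genes: Hmgn1, Hmgn2, Hmgn3, Hmgn5, Hmga1, Hmga2, Hmgb1, Hmgb2 and Hmgb3. They were taken as a named list of protein-coding entries, matched by Ensembl identifier, and are 9 of the 27263 genes listed in the deposited values. All 9 were found, and all 9 passed the filter on low values, a mean over all 6 libraries of 1 FPKM or more. FPKM counts fragments relative to exon length and library size. The length covers all annotated exons: 3060 bases for Hmgn2 and 5023 for Hmgb1, whose transcripts used here have 1265 and 2838. For Hmga1 it was 1990 against 2001. Orders, shares and ratios between genes depend on these lengths, and comparisons of a gene between libraries do not. The list was chosen by family, with the log2 differences between GCA and PBS from these same libraries known. Levels, fold changes and calls of the 9 genes are therefore a description, and no test of them is given.

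RNA was sequenced from primary bone marrow stromal cells of C57BL/6 mice, sorted from tibia and femur marrow as positive for Sca-1 and CD29 and negative for CD45 and CD11b. The cells were cultured with 10% serum. One group of 3 libraries received rGCA at 50 nM for 3 days, and the other group of 3 received PBS, the vehicle, for the same time. GCA is read here, from knowledge of the study, as grancalcin, a protein of myeloid cells that binds calcium. All libraries share the strain, the sort and the culture, and the labels give neither age nor sex of the mice. The labels do not say whether replicates came from separate mice or cultures, so every p-value measures only the spread between these libraries, which may be technical. The FPKM totals corresponded to 17543509 to 18645932 fragments per library. GCA replicate 2 stood apart from the other GCA libraries on the second principal component, which held 16.2% of the variance.

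HMG proteins are abundant, mobile, non-histone proteins of chromatin, and they fall into families that touch DNA in different ways. HMGN proteins bind inside the nucleosome itself, between DNA and histones, and compete with linker histone H1. HMGA proteins insert AT-hooks into the minor groove of AT-rich DNA and alter its shape for other factors. HMGB proteins carry a pair of HMG boxes that bend DNA, followed by an acidic tail. HMGB1 can also leave the cell and act as an alarm signal on receptors such as TLR4 and RAGE. Several members are known as genes of dividing, embryonic or progenitor cells, Hmga2 and Hmgb2 among them.

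The stretches that define each family are shown because the families, and not the single genes, are told apart by them, and because the likeness within a family bears on how reads can be assigned. In the HMGN genes the 8 codons of the core that docks on the nucleosome are in capitals, on the coding strand and 5′ to 3′, from the GENCODE M21 transcripts.
Hmgn1: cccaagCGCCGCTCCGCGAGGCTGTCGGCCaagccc
Hmgn2: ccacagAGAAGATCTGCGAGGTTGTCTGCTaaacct
Hmgn3: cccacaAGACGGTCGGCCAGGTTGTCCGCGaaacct
Hmgn5: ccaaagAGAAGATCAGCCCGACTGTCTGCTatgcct
The coding sequences hold 96 codons in Hmgn1, 90 in Hmgn2, 99 in Hmgn3 and 406 in Hmgn5. The longer Hmgn5 encodes a protein in which 37.9% of residues are acidic, against 15.6% in Hmgn2 and 16.7% in Hmgn1. Hmgn1 and Hmgn2 were identical at 69.4% of 252 aligned coding bases.

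In the HMGA genes the capitals mark the codons of the first AT-hook core, of which Hmga1 and Hmga2 each hold 3.
Hmga1: aagcgaggcCGGGGCAGGCCAcgcaagcag
Hmga2: aagcgaggaCGCGGCCGACCCaggaagcag
Their coding sequences, of 107 and 108 codons, were identical at 68.9% of 280 aligned bases.

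In the HMGB genes the capitals mark the closing run of codons for aspartate and glutamate, the acidic tail, with the stop codon left out.
Hmgb1: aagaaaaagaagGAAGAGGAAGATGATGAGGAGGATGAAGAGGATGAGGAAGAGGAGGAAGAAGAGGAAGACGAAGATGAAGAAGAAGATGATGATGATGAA
Hmgb2: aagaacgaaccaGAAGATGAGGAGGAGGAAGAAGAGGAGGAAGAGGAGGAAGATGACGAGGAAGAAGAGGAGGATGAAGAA
Hmgb3: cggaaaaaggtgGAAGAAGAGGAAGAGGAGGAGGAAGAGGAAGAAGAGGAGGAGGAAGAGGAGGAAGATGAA
The tail was 30 codons long in Hmgb1, 23 in Hmgb2 and 20 in Hmgb3. Hmgb1 matched Hmgb2 at 78.7% and Hmgb3 at 75.5% of aligned coding bases.

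Transcript levels of 5 of the 9 genes were higher in every GCA library than in every PBS library: Hmgn1, Hmgn2, Hmgb1, Hmgb2 and Hmgb3. The other 4, Hmgn3, Hmgn5, Hmga1 and Hmga2, overlapped between the groups. Of all genes tested, 21.6% were higher in all GCA libraries, and nothing is read from the members' count because this contrast was used to choose them. In a limma fit to the 11984 genes that passed the filter, 4 of the 9 were called higher with GCA at a Benjamini-Hochberg adjusted p below 0.05, 0 were called lower and 5 were not called. In the same fit 17.9% of all genes were called, 11.5% higher and 6.43% lower. The 4 called members were Hmgn1, Hmgn2, Hmgb2 and Hmgb3. Of these, Hmgb3 lay nearest the filter, at 2.09 FPKM in PBS. The log2 fold changes quoted here are differences of log2(FPKM + 1), so a low gene's true fold is larger than shown. Their median over the 9 genes was 0.19, beside 0.01 over all genes tested. In bulk RNA, more cells of a kind and more RNA per cell cannot be told apart, and this holds for every value here.

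**Figure D1:**
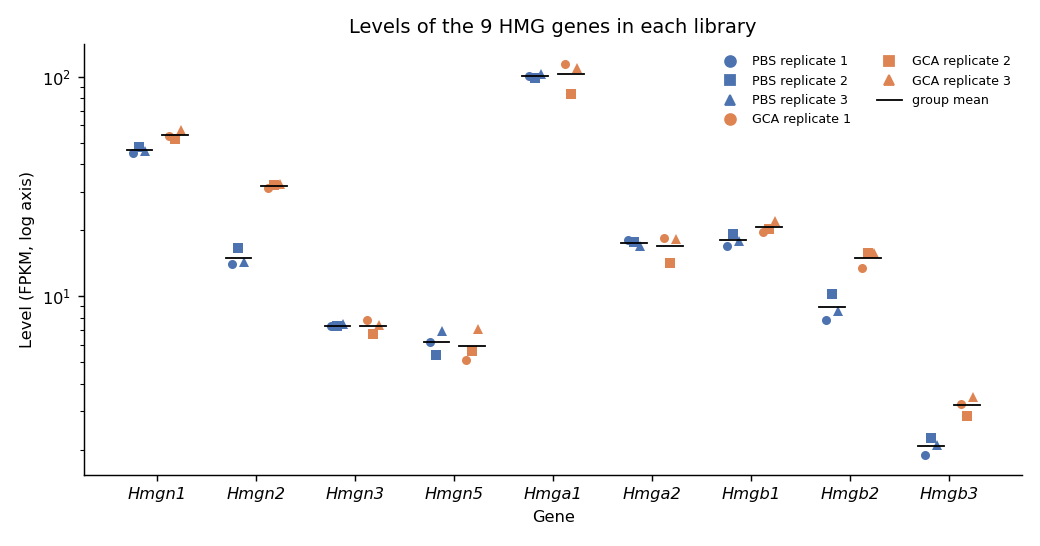
FPKM of each HMG gene in each of the 6 libraries, on a log axis; blue points are PBS, orange points are GCA, the marker shape is the replicate and the line is the group mean. Hmgn2 and Hmgb2 stand clear of their PBS values, while Hmga1 and Hmga2 have their lowest value in GCA replicate 2.

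Hmgn2 had the largest difference of the 9. It encodes a nucleosome-binding protein that loosens chromatin compaction and is known from proliferating and undifferentiated cells. The gene lies at chr4:133964738-133968650 on the minus strand of GRCm38 (ENSMUSG00000003038). Its level was 14.0, 16.6 and 14.3 FPKM in PBS replicates 1 to 3 and 31.0, 32.2 and 32.3 FPKM in GCA replicates 1 to 3. The 3 GCA libraries were close to one another, and the lowest of them lay well above the highest PBS library. The group means were 14.9 ± 1.42 and 31.8 ± 0.735 FPKM (SD, n = 3), a ratio of 2.13. On the log2 scale the difference was 1.05 with an SE of 0.067, which placed Hmgn2 at rank 44 from the top among the 11984 genes tested. These values rest on 778 to 1843 fragments per library.

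Hmgn1, at chr16:96120618-96127729 on the minus strand (ENSMUSG00000040681), encodes the close relative of Hmgn2 and was the more abundant of the pair. It was at 44.9, 48.0 and 45.8 FPKM with PBS and at 53.9, 52.0 and 57.3 FPKM with GCA. The groups did not overlap, but the step between them was small, 52.0 against 48.0 FPKM at its narrowest. Means were 46.3 ± 1.60 and 54.4 ± 2.69 FPKM (SD, n = 3), a ratio of 1.18, with a log2 difference of 0.23 and an SE of 0.052. The call of Hmgn1 was lost without PBS replicate 1, PBS replicate 3, GCA replicate 1 or GCA replicate 3.

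Hmgn3 and Hmgn5 were the low members of the family. Hmgn3, whose protein has been tied to hormone-secreting and nerve cells, lies at chr9:83109948-83146685 on the minus strand (ENSMUSG00000066456). It was at 7.31, 7.31 and 7.47 FPKM in PBS and at 7.82, 6.71 and 7.40 FPKM in GCA libraries, so the PBS values fell inside the GCA range. The log2 difference was −0.01 with an SE of 0.061. Hmgn5, the X-linked member with the long acidic tail, lies at chrX:109004534-109013404 on the minus strand (ENSMUSG00000031245). It was at 6.21, 5.41 and 6.96 FPKM in PBS and at 5.15, 5.66 and 7.10 FPKM in GCA libraries. It varied more within each group than between the group means, which were 6.19 ± 0.775 and 5.97 ± 1.01 FPKM (SD, n = 3). Its log2 difference was −0.05 with an SE of 0.117.

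The family's makeup therefore differed between the groups. Hmgn2 was at 0.311, 0.345 and 0.311 of the Hmgn1 level in PBS libraries and at 0.576, 0.620 and 0.564 of it in GCA libraries. Hmgn3 was at 0.152 to 0.163 of the Hmgn1 level with PBS and at 0.129 to 0.145 with GCA. Both ratios compare genes within 1 library, so a scaling common to a library cancels in them. The summed HMGN level was 72.4, 77.3 and 74.5 FPKM in PBS and 97.8, 96.6 and 104 FPKM in GCA libraries.

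**Figure D2:**
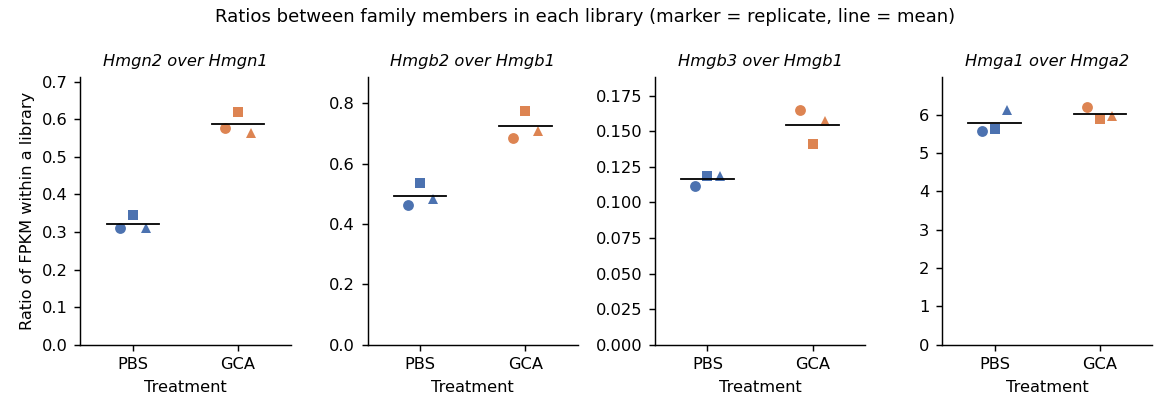
Ratio of the FPKM of 2 members of one family within each library, with PBS in blue and GCA in orange, the marker shape as replicate and the line as group mean; each axis starts at 0. Hmgn2 over Hmgn1, Hmgb2 over Hmgb1 and Hmgb3 over Hmgb1 are higher in all 3 GCA libraries, and Hmga1 over Hmga2 overlaps between 5.57 and 6.20.

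Hmga1 was the most abundant of the 9 genes in both groups. It encodes the AT-hook protein found in most dividing cells, a part of enhancer complexes, and lies at chr17:27556497-27563674 on the plus strand (ENSMUSG00000046711). It was at 101, 98.9 and 103 FPKM in PBS replicates 1 to 3. With GCA it was at 115 and 109 FPKM in replicates 1 and 3 and at 83.8 FPKM in replicate 2. The last value lay below every PBS library and the other GCA values above them, so the mean, 103 ± 16.5 FPKM (SD, n = 3), matches none of the GCA libraries. The log2 difference was 0.01 with an SE of 0.111, and it was 0.15 without GCA replicate 2. Its direction is not settled: it was −0.018 after quantile normalization and −0.0042 after median centring.

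Hmga2, at chr10:120361275-120476469 on the minus strand (ENSMUSG00000056758), encodes the embryonic AT-hook protein, which the let-7 microRNAs hold down through sites in its 3′ UTR. It was at 18.1, 17.6 and 16.9 FPKM in PBS and at 18.5, 14.2 and 18.3 FPKM in GCA libraries. GCA replicate 2 was again the lowest, and the other GCA values were above all PBS values. Means were 17.5 ± 0.629 and 17.0 ± 2.43 FPKM (SD, n = 3), with a log2 difference of −0.05 and an SE of 0.096. Without GCA replicate 2 the difference was 0.067. In FPKM, Hmga1 exceeded Hmga2 by 5.57 to 6.13 times in PBS and 5.90 to 6.20 times in GCA libraries. The pair thus kept its proportions in the library where both were low, though the size of the ratio depends on the exon lengths.

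Sites that match the let-7 seed in the Hmga2 3′ UTR are shown because let-7 is known to act on this gene. This 3′ UTR was also the longest of those searched. The let-7a-5p sequence is from RefSeq, with the seed, bases 2 to 8, in capitals. The sites are those of the GENCODE M21 transcript Hmga2-201, with the complement of the seed in capitals, at bases 21, 1258, 1696 and 2554 of a 3′ UTR of 2977 bases.
let-7a-5p: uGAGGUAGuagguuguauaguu
Hmga2 site 1: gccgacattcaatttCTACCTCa
Hmga2 site 2: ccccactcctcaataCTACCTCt
Hmga2 site 3: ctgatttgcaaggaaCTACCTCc
Hmga2 site 4: aatcaaaacacactaCTACCTCt
The motif CTACCTC was found 4 times in the Hmga2 3′ UTR, 1 time in that of Hmga1 and 0 times in those of the other 7 genes. A match is a description of the letters, not evidence that the site is used in these cells. Mature let-7 was not measured here.

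Hmgb2 had the largest difference within its family. The protein is a DNA-bending factor of dividing and progenitor cells, and the gene lies at chr8:57511907-57515999 on the plus strand (ENSMUSG00000054717). It was at 7.84, 10.3 and 8.61 FPKM in PBS and at 13.4, 15.8 and 15.7 FPKM in GCA libraries. PBS replicate 2 was the highest of its group and GCA replicate 1 the lowest of its own, and a gap remained between them. Means were 8.90 ± 1.23 and 14.95 ± 1.34 FPKM (SD, n = 3), a ratio of 1.68. The log2 difference was 0.69 with an SE of 0.099, at rank 161 from the top, on 429 to 879 fragments per library.

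Hmgb3, an X-linked member known from blood progenitors, lies at chrX:71555918-71560676 on the plus strand (ENSMUSG00000015217) and was the lowest of the 9 genes. It was at 1.89, 2.27 and 2.11 FPKM in PBS and at 3.23, 2.86 and 3.48 FPKM in GCA libraries. These rest on 77 to 145 fragments per library, so counting alone gives an error of 8.30% to 11.4% of each value. The groups did not overlap, with means of 2.09 ± 0.189 and 3.19 ± 0.314 FPKM (SD, n = 3), a ratio of 1.53. The log2 difference was 0.44 with an SE of 0.082.

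Hmgb1, the ubiquitous member and the one that acts as an alarm signal outside the cell, lies at chr5:149046702-149184489 on the minus strand (ENSMUSG00000066551). It was at 16.9, 19.2 and 17.8 FPKM in PBS and at 19.6, 20.3 and 22.1 FPKM in GCA libraries. The groups were separate, but only just, at 19.2 against 19.6 FPKM. Means were 17.97 ± 1.13 and 20.7 ± 1.31 FPKM (SD, n = 3), a ratio of 1.15, with a log2 difference of 0.19 and an SE of 0.064. Hmgb1 was not called in the fit to FPKM. It was called with limma-voom on recovered fragments, at a log2 difference of 0.21.

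Within the family, Hmgb2 was at 0.463, 0.535 and 0.483 of the Hmgb1 level in PBS libraries and at 0.685, 0.776 and 0.710 of it in GCA libraries. Hmgb3 was at 0.112 to 0.118 of the Hmgb1 level with PBS and at 0.141 to 0.165 with GCA. The summed HMGB level was 26.7, 31.7 and 28.5 FPKM in PBS and 36.2, 38.9 and 41.3 FPKM in GCA libraries.

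**Figure D3:**
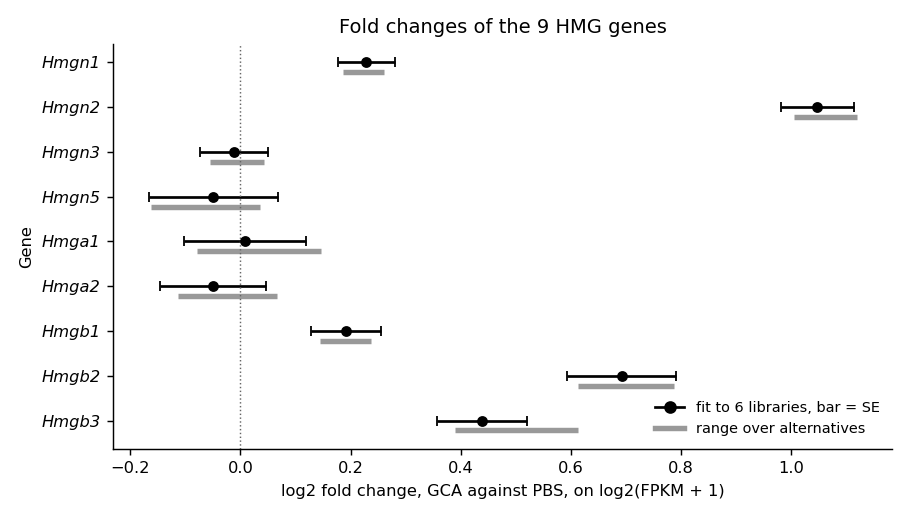
log2 fold change of each HMG gene, GCA against PBS, on the log2(FPKM + 1) scale; the point is the fit to 6 libraries, the bar its SE, and the grey line the range over the alternative settings run, leaving out the sum of Hmgb2 with an entry of another gene family. Hmgn2, at 1.05, lies farthest to the right, and the grey lines of Hmgn3, Hmgn5, Hmga1 and Hmga2 cross 0.

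Ordered by level, PBS libraries gave Hmga1, Hmgn1, Hmgb1, Hmga2, Hmgn2, Hmgb2, Hmgn3, Hmgn5 and Hmgb3 from the highest down. Of these neighbours, Hmgb1 and Hmga2 overlapped and the others did not. GCA libraries gave Hmga1, Hmgn1, Hmgn2, Hmgb1, Hmga2, Hmgb2, Hmgn3, Hmgn5 and Hmgb3. There, Hmga2 overlapped with Hmgb2, and Hmgn3 with Hmgn5. Hmgn2 thus stood in the fifth place by mean FPKM with PBS and in the third with GCA. These places depend on the exon lengths used and could differ with transcript lengths.

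The 9 genes together summed to 218, 225 and 223 FPKM in PBS and to 267, 233 and 273 FPKM in GCA libraries. GCA replicate 2 was the lowest of its group through its low Hmga1. HMGA genes made up 51.7% to 54.6% of the sum in PBS and 42.0% to 49.9% in GCA libraries. HMGN genes made up 33.2% to 34.3% and 36.6% to 41.4%. HMGB genes made up 12.2% to 14.1% and 13.5% to 16.7%, and these overlapped. As a share of all FPKM in a library the 9 genes came to 0.0598% to 0.0649% in PBS and 0.0630% to 0.0802% in GCA libraries, which also overlapped.

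HMG genes have many processed copies in the mouse genome, and the sources used here do not say how shared reads were assigned. Copies were sought as annotated entries with at least 90% identity over at least 50% of a member's coding sequence or transcript. Hmgb1 had 111 such entries, of which 33 are listed in the files used here and 20 had a mean of at least 0.1 FPKM. Hmgn2 had 25, of which 8 are listed and 6 reached that level. Hmgb3 had 12, Hmgb2 had 9 besides 1 entry of another gene family, Hmgn1 had 5, Hmga1, Hmga2 and Hmgn5 had 1 each and Hmgn3 had 0.

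Fragments assigned to the listed copies made up 28.2% to 31.5% of those of Hmgb1 and its copies together, the largest share of the 9. For Hmgb1 the levels are thus uncertain. Its copy Gm15387, at 99.8% identity, had a mean of 18.1 FPKM in PBS and 24.0 FPKM in GCA libraries. That level is near the one of Hmgb1 because Gm15387 has 648 exon bases and Hmgb1 has 5023. In fragments the copy had 195 to 297 per library, against 1550 to 2072 for Hmgb1. With copies added, the Hmgb1 log2 difference was 0.21 and was called. The copies' share was 9.84% to 10.7% for Hmgn2, 8.37% to 10.2% for Hmga1, 6.10% to 16.8% for Hmgb3 and 4.46% to 6.26% for Hmgb2. It was 1.81% to 4.47% for Hmga2 and at most 0.755% for Hmgn1.

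Listed copies of Hmgn2 were higher with GCA as well. Gm10282, at chr8:72304110-72305260, has a coding sequence identical to that of Hmgn2. It had 47, 62 and 60 fragments in PBS and 138, 149 and 147 in GCA libraries. The pseudogene Hmgn2-ps1, at 97.8% identity, had 23, 28 and 16 fragments in PBS and 34, 37 and 38 in GCA libraries. Hmga1b, at chr11:120762794-120764419, is identical to Hmga1 over the coding sequence and had 377, 406 and 366 fragments in PBS and 417, 267 and 424 in GCA libraries. Like Hmga1, it was lowest in GCA replicate 2. Whether these fragments arose from the copies or from the parent genes cannot be told apart. Summing each gene with its copies left the log2 difference of Hmgn2 at 1.06, that of Hmgb3 at 0.45 and, with Tmx3 left out, that of Hmgb2 at 0.70. Tmx3, the entry of another gene family, meets the definition of a copy. With it in the sum the Hmgb2 difference was −0.017 and was not called. Leaving Tmx3 out was chosen after seeing the data.

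**Figure D4:**
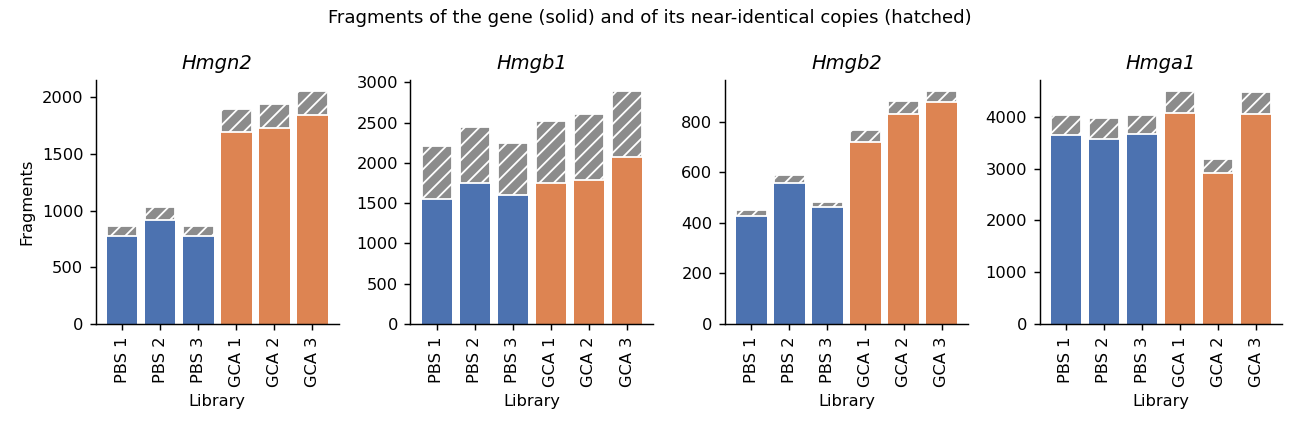
Fragments per library recovered from the deposited values for 4 genes (solid, PBS blue and GCA orange) and for their listed near-identical copies (hatched, stacked above); each axis starts at 0. Copies hold about a constant share within each gene, between 28.2% and 31.5% for Hmgb1 and between 9.84% and 10.7% for Hmgn2.

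In the annotation other genes overlap 5 of the members: Hmgn3, Hmgn5, Hmga1, Hmga2 and Hmgb1. Those with a mean of at least 1 FPKM were at Hmga1, Hmga2 and Hmgb1. AI413582, a protein-coding gene on the opposite strand to Hmga1, had a mean of 25.6 FPKM. The microRNA gene Mir763, on the same strand as Hmga2, had 1.86 FPKM. Uspl1, opposite Hmgb1, had 2.87 FPKM, and the pseudogene Gm8615, on the same strand as Hmgb1, had 2.30 FPKM. The sources used here do not say whether counting used strand, so reads of Hmga1 and AI413582 may not be separable.

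The promoters shown are those of the 4 called genes, which were picked with these same data. The part of promoter motifs in the levels was not tested. Each promoter is the 250 bases before the RefSeq start on GRCm38.p6, 5′ to 3′ on the gene's strand. Capitals mark CCAAT (the CCAAT box), GGGCGG (the GC box) and TTTGAA (the CHR, an element of cell cycle genes), each on either strand. No matches overlapped.
Hmgn2, chr4:133967992-133968241, minus strand: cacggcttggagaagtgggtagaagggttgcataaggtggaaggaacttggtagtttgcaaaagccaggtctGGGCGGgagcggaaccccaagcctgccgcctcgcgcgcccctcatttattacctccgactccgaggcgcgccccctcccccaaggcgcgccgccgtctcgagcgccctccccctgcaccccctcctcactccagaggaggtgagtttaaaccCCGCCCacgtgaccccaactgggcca
Hmgb2, chr8:57511593-57511842, plus strand: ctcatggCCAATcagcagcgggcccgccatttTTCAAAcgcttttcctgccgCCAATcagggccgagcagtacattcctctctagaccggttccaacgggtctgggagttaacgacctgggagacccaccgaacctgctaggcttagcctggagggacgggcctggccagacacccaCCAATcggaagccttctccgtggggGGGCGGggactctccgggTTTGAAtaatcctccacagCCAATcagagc
Hmgb3, chrX:71555667-71555916, plus strand: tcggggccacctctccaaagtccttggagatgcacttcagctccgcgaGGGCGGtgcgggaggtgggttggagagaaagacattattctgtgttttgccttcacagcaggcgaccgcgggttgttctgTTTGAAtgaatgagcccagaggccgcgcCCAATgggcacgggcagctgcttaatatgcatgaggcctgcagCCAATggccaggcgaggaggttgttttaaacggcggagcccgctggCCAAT
Hmgn1, chr16:96127726-96127975, minus strand: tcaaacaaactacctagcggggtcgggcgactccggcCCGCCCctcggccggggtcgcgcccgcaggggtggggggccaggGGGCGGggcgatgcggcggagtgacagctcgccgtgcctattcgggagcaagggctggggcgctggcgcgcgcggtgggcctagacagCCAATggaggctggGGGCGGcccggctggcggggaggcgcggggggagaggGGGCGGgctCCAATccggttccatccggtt
The Hmgb2 window held 4 CCAAT boxes, 1 GC box and 2 TTTGAA elements, and that of Hmgb3 held 3, 1 and 1. The Hmgn1 window held 2 CCAAT boxes, 4 GC boxes and 0 TTTGAA, and that of Hmgn2 held 0, 2 and 0. The 4 windows thus did not share 1 arrangement. The Hmgn2 window lies inside the annotated span of its gene, chr4:133964738-133968650, so bases upstream of that annotated start were not searched.

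Among 32851 mouse promoter windows of the same length, 33.8% held CCAAT at least once, 2.79% held it 3 or more times and 0.84% held it 4 or more times. GGGCGG was in 32.7% of windows and TTTGAA in 16%, with 1.81% holding TTTGAA 2 or more times. Of the other members, Hmgb1 had 3 CCAAT boxes and 0 GC boxes before the first of its RefSeq starts. Before the second it had 0 CCAAT boxes and 4 GC boxes. These Hmgb1 windows lie inside the annotated span of the gene, so bases upstream of its annotated start were not searched. Hmgn5 had 2 CCAAT boxes, and Hmga1 and Hmga2 had 0. Hmga1 had 3 and 4 GC boxes before its RefSeq starts and Hmga2 had 1. The E2F motifs TTTGGCGC and TTTCCCGC, in 0.417% and 0.895% of windows, were in 0 of the members' windows. Hmgn3 was not matched in the promoter table.

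Related genes of chromatin were followed as lists, whose members were chosen with earlier results known. Other genes with an HMG box numbered 18 tested of 30, of which 1 was called higher and 0 lower, beside 11.5% and 6.43% over all genes. Their median log2 difference was 0.03. The gene called was Wdhd1, a replication factor, which rose from 1.57 to 2.58 FPKM (log2 difference 0.48, limma with Benjamini-Hochberg adjusted p = 0.00571). Sox11 had a log2 difference of −0.28 and an adjusted p of 0.0521 from the same fit, and Ssrp1, the HMG-box subunit of the FACT complex, 0.13 and 0.113. Sox11 was called in 5 of the alternative settings.

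Linker histones compete with HMGN proteins for nucleosomes, and 2 of the 7 on the list were tested. H1f0, the replacement linker histone, went from 28.0 to 35.3 FPKM (log2 difference 0.32, limma adjusted p = 0.0183). That call was lost without PBS replicate 1, PBS replicate 3, GCA replicate 1 or GCA replicate 3, with an adjusted p of up to 0.0664, and with no filter on low values (0.0759). Hist1h1c had a log2 difference of −0.09 and was not called.

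Histone chaperones, which carry histones to and from DNA, gave 5 called higher and 0 lower of 22 tested. Over all genes the shares were 11.5% and 6.43%. When a library was left out, 2 to 4 chaperones were called higher. The 2 lowest counts, of 2 and 3, came without PBS replicate 1 or 3 and without PBS replicate 2 or GCA replicate 3. The median log2 difference of the chaperones was 0.07. Anp32b, an acidic chaperone, rose from 43.0 to 53.1 FPKM (log2 difference 0.30, limma adjusted p = 0.00723). Hjurp, which deposits the centromeric histone, rose from 8.93 to 11.2 FPKM (0.30, limma adjusted p = 0.0108). Nasp, a chaperone of histone H3, went from 5.20 to 6.60 FPKM and Ptma, an acidic nuclear protein that meets linker histones, from 280 to 319 FPKM, with limma adjusted p-values of 0.0348 and 0.0396. Both calls were lost without PBS replicate 1, PBS replicate 3, GCA replicate 1 or GCA replicate 3, and that of Nasp also without PBS replicate 2. With no filter on low values neither was called, at adjusted p-values of 0.114 for Nasp and 0.0975 for Ptma. The call of Ptma was also lost after median centring (0.0543) and in limma without trend and robust moderation (0.0616). Leaving out a library raised the adjusted p-values to as much as 0.0999 and 0.134.

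Heterochromatin and DNA-shape proteins gave 6 called higher and 0 lower of 23 tested, beside 11.5% and 6.43% over all genes. Their median log2 difference was 0.08. With a library left out, 4 to 7 of these genes were called higher. Lmnb1, a lamin of the nuclear envelope, rose from 4.78 to 7.81 FPKM (log2 difference 0.61, limma adjusted p = 0.00378). Uhrf1, which brings the maintenance methyltransferase to new DNA, rose from 5.76 to 8.14 FPKM (0.43, limma adjusted p = 0.00551). Dnmt1, that methyltransferase, rose from 10.6 to 13.001 FPKM (0.27, limma adjusted p = 0.00997), and Parp1, a DNA break sensor, from 12.2 to 14.8 FPKM (0.26, limma adjusted p = 0.00941). The SET complex, in which Hmgb2 takes part, had 0 of 4 tested genes called, and 0 of 4 had groups that did not overlap, beside 38.5% of all genes tested.

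Receptors and partners of extracellular HMGB1 gave 2 called higher and 2 lower of 12 tested, beside 11.5% and 6.43% over all genes. Their median log2 difference was −0.07, and nothing is read from counts this small. Tlr9, a receptor for DNA that HMGB1 can deliver, rose from 3.94 to 8.74 FPKM (log2 difference 0.98, limma adjusted p = 0.000396). Havcr2, the receptor TIM-3, rose from 14.7 to 19.0 FPKM (0.35, limma adjusted p = 0.00282). Cxcr4, the chemokine receptor used by HMGB1 bound to CXCL12, fell from 38.1 to 26.1 FPKM (−0.54, limma adjusted p = 0.00476). The proteoglycan Sdc1 fell from 51.2 to 38.4 FPKM (−0.41, limma adjusted p = 0.00208). Tlr4, at −0.03, was not called.

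The list around HMGA2 and let-7 had 1 gene called higher and 1 lower of 11 tested, beside 11.5% and 6.43% over all genes. Its median log2 difference was 0.03. Ccna2, a cyclin of S phase and mitosis, rose from 5.91 to 10.0 FPKM (log2 difference 0.67, limma adjusted p = 0.00237), and Ccnd2, a cyclin of G1, fell from 52.7 to 38.7 FPKM (−0.43, limma adjusted p = 0.0104). With no filter on low values Ccnd2 had an adjusted p of 0.0507 and was not called. Igf2bp2, a known target of HMGA2, was at −0.13 and was not called.

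**Figure D5:**
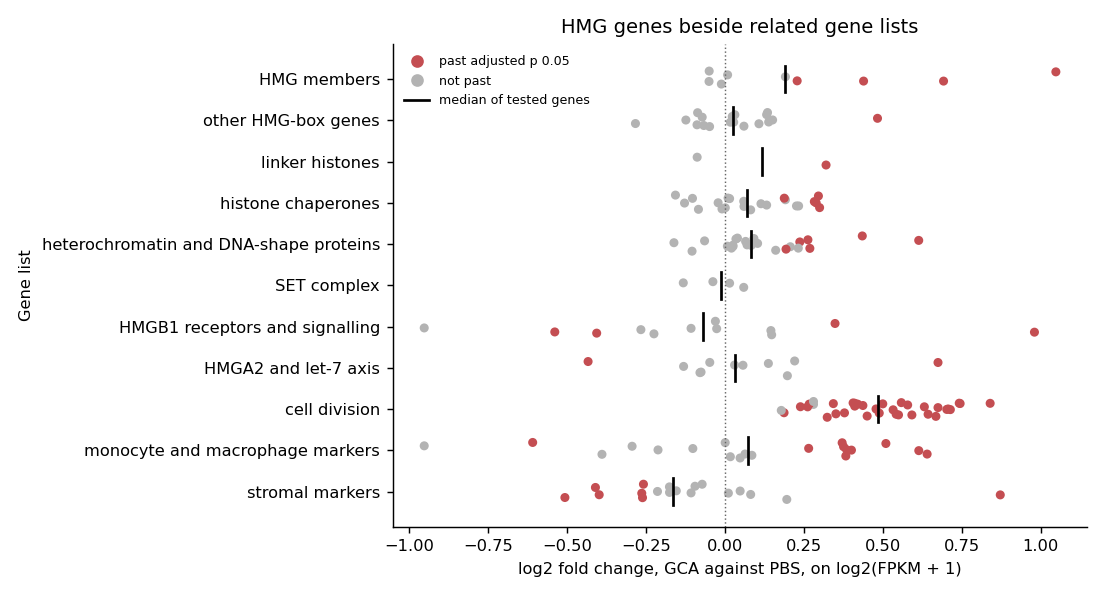
log2 fold change, GCA against PBS, of each tested gene of the HMG list and 10 other lists; red points passed a limma adjusted p of 0.05, grey points did not, and the line is the list's median. Cell division genes lie to the right of 0, with a median of 0.48. Medians of the other chromatin lists run from −0.01 for the SET complex to 0.12 for linker histones, beside 0.01 over all genes. Of the heterochromatin and DNA-shape genes, 20 of 23 tested lie above 0, and of the chaperones 16 of 22. The share of all genes above 0 is not given here, so nothing is read from these counts.

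Cell division genes were higher together in the libraries in which Hmgn2 and Hmgb2 were higher. Of 36 such genes tested, 33 were called higher and 0 lower, beside 11.5% and 6.43% over all genes. When a library was left out, 25 to 30 were called higher. The median log2 difference of the list was 0.48. The summed level of the list was 491 to 544 FPKM in PBS and 709 to 747 FPKM in GCA libraries. Ccnb2, a mitotic cyclin, rose from 8.30 to 15.6 FPKM (log2 difference 0.84, limma adjusted p = 0.000396), and Ube2c, which drives its destruction, from 6.60 to 11.5 FPKM (0.71, limma adjusted p = 0.00033). The microtubule regulator Stmn1 rose from 21.05 to 34.9 FPKM (0.70, limma adjusted p = 0.000522). The part of cell division in the levels of the HMG genes was not tested.

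By pattern over the 6 libraries, the tested genes most like Hmgn2, among those averaging 5 FPKM or more, were Lig1, Gng2, Cotl1, Rin2 and Scamp5. Their Pearson correlations with Hmgn2 on log2(FPKM + 1) ran from 0.996 to 0.998, the highest among 7335 genes compared, and they mainly reflect the step between the groups. Those most like Hmga2, the member with the lowest log2 difference, were Phf20l1, Cldn1, Cd5l, Trim44 and Ccnd1, at 0.974 to 0.996. All 5 of these had a higher mean with GCA than with PBS once GCA replicate 2 was left out, on the log2(FPKM + 1) scale. The correlations describe 6 libraries and carry no test.

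The libraries also held transcripts of other cell types than the sort names. Markers of monocytes and macrophages were abundant in every library. The lysozyme gene Lyz2 had means of 13518 and 8879 FPKM in PBS and GCA, and the list summed to 20614 to 22886 FPKM in PBS and 18192 to 19435 FPKM in GCA libraries. Without Lyz2 the sum was 7989 to 8824 FPKM and 9744 to 10168 FPKM. Of the 20 tested, 9 were called higher, among them Cd68, Mrc1 and Laptm5, and 1, Lyz2, lower. Over all genes the shares were 11.5% and 6.43%. The number called lower was 5 without GCA replicate 2, and Lyz2 was not called after quantile normalization.

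Stromal markers gave 1 called higher, Vcam1, and 6 lower of 18 tested, Col3a1, Postn and Pdgfrb among them. Over all genes the shares were 11.5% higher and 6.43% lower. The stromal list summed to 4880 to 5225 FPKM in PBS and 4240 to 4549 FPKM in GCA libraries. Genes that define the sort did not pass the test: Ptprc (CD45) had means of 12.6 and 13.4 FPKM in PBS and GCA, Itgam (CD11b) 39.3 and 30.5, Ly6a (Sca-1) 284 and 324, and Itgb1 (CD29) 348 and 313. Without GCA replicate 2, Itgam was called lower, at a limma adjusted p of 0.00185. CD45 and CD11b transcripts were present in libraries of cells sorted as negative for both.

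The other marker lists were low: neutrophil markers summed to 10.9 to 13.4 FPKM in PBS and 13.4 to 18.9 in GCA libraries, B cell markers to 9.99 to 10.8 and 14.6 to 16.2, T and NK cell markers to 1.64 to 1.96 and 3.95 to 4.64, erythroid markers to 0.349 to 1.04 and 0.740 to 1.33, and endothelial markers to 3.02 to 3.18 and 2.93 to 3.76. All 27263 genes with values were above 0 in at least 1 library, so no marker with values could be at 0 in all of them. Some markers of these lists, the T cell genes Cd3e, Cd3d and Cd3g among them, were not analysed here. The part of any of these cell types in the HMG levels was not tested.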

How the data were processed

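The deposited files give 1 value per Ensembl gene and library. The unit is not named in them; the values deposited by the authors were identified as FPKM because, multiplied by the GENCODE M21 exon length, 91.0% of the values above 0 (92.8% with zeros counted) are whole fragments within 0.02 fragment over 1 total per library. Of the 27263 genes, 27204 matched GENCODE M21 and 59 did not. Hmga1 gave whole fragments at a length of 1990 bases and not at 2125, its M21 length. The submitters' processing notes name the aligner Bowtie (0.12.2) and, as builds, mm8 with mm9. Their role, the counting tool, the annotation and the strand setting: not given in the sources used here. Coordinates come from GENCODE M21 (GRCm38) by identifier.

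Groups follow the sample titles. The fit was limma-trend with robust moderation (limma 3.58.1, R 4.3.3) on log2(FPKM + 1), for genes whose mean reached 1 FPKM, with treatment as the only term, two-sided, with Benjamini-Hochberg adjustment over 11984 genes. It was tested on simulated data. At these totals counting error was 8.30% to 11.4% for Hmgb3, the lowest member, and smaller for the others; it covers counting only. Copies were found with BLAST 2.17.0, identities with Biopython 1.88, and tables used pandas 2.3.3 and numpy 2.4.6. Promoters and the let-7 sequence are from RefSeq (GRCm38.p6); 8 of the 9 genes matched the promoter table.

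The members and gene lists were chosen with earlier results of these data known. All members are named; of each other list, up to 4 tested genes with the smallest p, the genes of the sort, and the 5 genes most alike in pattern to the members with the highest and lowest log2 difference. Some genes that this rule takes are left out here. Other list genes given (Tlr4, Igf2bp2) were chosen after their values were seen. The alternatives were quantile normalization, median centring, the replicate number as a block, other pseudocounts, filters and thresholds, limma without trend and robust moderation, limma-voom on recovered fragments, protein-coding genes alone, copies summed with the member, and leaving out each library.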

Additional observations from a re-analysis of the deposited data

How the results depend on the processing

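The number of genes called, 2151 in all, 1380 higher and 771 lower, was 1232 to 2088, 842 to 1317 and 390 to 771 when a library was left out; the lowest of each came without PBS replicate 3. It was 1075, 735 and 340 with no filter on low values, and 837, 591 and 246 at a threshold of 0.01. At a threshold of 0.1, 1258 genes were called lower. Of the genes called, 64.2% were higher, against 53.8% after quantile normalization. The labels do not say whether PBS and GCA libraries with the same replicate number are paired. Same-numbered libraries correlated in their deviations at 0.08, 0.03 and 0.07. These values are low, though every library correlated best with its own number, a hint from the data and not the design. With the replicate block 2094 genes were called, the calls of the 9 HMG genes were as without it, and that of Ptma was lost (adjusted p = 0.0691).

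Hmgn2, Hmgb2 and Hmgb3 kept their direction and call under all alternatives in which they were tested, with 1 exception. With copies summed, Hmgb2 was at −0.017 when Tmx3 was counted as a copy, a gene of another family 1 transcript of which holds Hmgb2 sequence; it was 0.70 with Tmx3 left out, an alternative chosen after seeing the data. Hmgn1, at 0.23 with no filter on low values, was then not called, and it ran from 0.19 to 0.26 when a library was left out. Hmgb1 was called with limma-voom (0.21) and with copies summed (0.21, with or without Tmx3). When a library was left out, Hmgn3 ran from −0.055 to 0.042, Hmgn5 from −0.16 to 0.035, Hmga1 from −0.078 to 0.15 and Hmga2 from −0.11 to 0.067, and Hmga1 was −0.018 after quantile normalization and −0.0042 after median centring. The causes were not tested.

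Among the 60 named genes outside the HMG list, 901 of 949 alternative values kept direction and side of the threshold, 26 lost the call, 8 gained it and 14 changed sign. Those 14 belong to genes that were not called: Set was −0.016 after quantile normalization, and when a library was left out Set ran from −0.023 to 0.037, Apex1 from −0.14 to 0.061, Camp from −0.016 to 0.21, Phf20l1 from −0.072 to 0.045, Cldn1 from −0.094 to 0.092, Cd5l from −0.59 to 0.31, Trim44 from −0.068 to 0.082 and Ccnd1 from −0.085 to 0.046. Of 480 counts over gene lists, 451 stayed within 1.5 times.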
